A study of Mus musculus with 28 samples.

Results

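The genes described here are the mouse solute carriers of the families Slc5, Slc13, Slc17, Slc22, Slc34 and Slc47, measured in renal dendritic cells sorted from kidney cortex and medulla. They were taken by symbol: every probeset with a single gene symbol in these families counted, except Slc5a3, an inositol carrier. This gave 53 genes with 1 probeset each, of the 19272 genes with a single-symbol probeset on the array. The families contributed 12 (Slc5), 5 (Slc13), 9 (Slc17), 23 (Slc22), 2 (Slc34) and 2 (Slc47) genes. Of the 53, 38 were bright enough to be tested, among 14346 tested genes in all.

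The series holds 28 arrays in 8 groups. Donor cells (BALB/c, sorted by CD45.2) and host cells (C57BL/6, sorted by CD45.1) came from the medulla and the cortex of kidney allografts 3 days after transplantation, with 3 arrays per group. Homeostatic cells came from the medulla and the cortex of healthy BALB/c and C57BL/6 kidneys, with 4 arrays per group. All cells were also sorted by CD11c and MHC class II after digestion of the kidney, and their RNA was amplified. Host and donor cells were taken from the same grafts, and the medulla and cortex arrays of a kind of cells came from the same mice. The labels give no variant of CD45 for the homeostatic mice.

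Proximal tubule cells of the renal cortex reclaim sugars, phosphate, sulfate, lactate and citrate from the filtrate. Sodium-coupled carriers of the Slc5, Slc13 and Slc34 families in their apical membrane use the sodium gradient for this. The same cells take organic anions and cations from the blood through Slc22 carriers and release them into the filtrate, in part through Slc47 exchangers. Some relatives have other sites: Slc17a6, Slc17a7 and Slc17a8 fill synaptic vesicles with glutamate, Slc17a5 exports sialic acid from lysosomes, and Slc22a4 carries ergothioneine into blood cells among others. Dendritic cells are antigen-presenting leukocytes, and most carriers named here are not among the genes that define them.

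Levels are log2 array signal, means carry their SD, and a difference, medulla minus cortex unless stated, is on the log2 scale with its SE from limma. A gene was called when its adjusted p over all 14346 genes was under 0.05. The 15 members that were not tested lay above the 40th percentile of the array on at most 2 arrays, and include the glutamate carriers Slc17a6 and Slc17a8, the neuronal choline carrier Slc5a7 and the glucose sensors Slc5a4a and Slc5a4b. Of the tested members 5, Slc5a12, Slc13a1, Slc13a2, Slc22a22 and Slc22a30, lay above this percentile in no medulla array and passed the filter through the cortex alone. Slc5a8 lay above it in 10 cortex arrays and 1 medulla array, so it too needed the cortex to reach the 3 arrays of the filter. Levels of different probesets are not on 1 scale and were not ranked as expression. Array BALB/c medulla replicate 1 stood apart from its group, with a mean correlation of 0.759 with the other 3 arrays; no BALB/c regional call was gained or lost without it, and without it in the shared spread 11 members were called in donor and 13 in host cells, against 11 and 12 with it.

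The sequences upstream of these genes are shown first, since several members moved together and some are neighbours in the genome. RefSeq promoters (250 bases before to 50 after a transcription start, build GRCm38.p6) were found for 43 of the 53 members, with 50 promoters. They were searched on both strands for GTTAAT, the core of a homeodomain binding site known from promoters of kidney and liver genes, and for CAAAGTCCA, a site of the nuclear receptor HNF4. GTTAAT stood in 5 of the 50 promoters, those of Slc5a4a, Slc5a10, Slc22a6, Slc22a8 and Slc22a29, and in 7.10% of the 32851 promoters in the table. CAAAGTCCA stood in none of the 50 and in 0.475% of all promoters. The full palindrome built from GTTAAT was found in 3 promoters of the table, none of them a member's. The following promoters belong to the basolateral organic anion carriers Slc22a6 (OAT1, chr19:8617746-8618045, plus strand) and Slc22a8 (OAT3, chr19:8592932-8593231, plus strand), which held the motif, 2 of the 9 members called in graft cells for which a promoter was at hand, and to Slc17a3 (chr13:23839184-23839483, plus strand), the member called in 3 of the 4 regional comparisons. Capitals mark GTTAAT.
Slc22a6: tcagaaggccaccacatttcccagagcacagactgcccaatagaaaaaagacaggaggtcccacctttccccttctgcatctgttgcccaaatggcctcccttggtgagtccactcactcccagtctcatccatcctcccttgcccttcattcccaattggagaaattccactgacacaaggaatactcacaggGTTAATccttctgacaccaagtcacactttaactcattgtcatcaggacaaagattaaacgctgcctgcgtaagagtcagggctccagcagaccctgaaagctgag
Slc22a8: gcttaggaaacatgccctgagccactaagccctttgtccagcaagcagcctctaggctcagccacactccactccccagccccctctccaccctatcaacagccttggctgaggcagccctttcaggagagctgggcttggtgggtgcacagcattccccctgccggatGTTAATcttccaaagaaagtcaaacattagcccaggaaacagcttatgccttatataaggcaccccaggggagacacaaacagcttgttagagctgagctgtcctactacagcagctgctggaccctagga
Slc17a3: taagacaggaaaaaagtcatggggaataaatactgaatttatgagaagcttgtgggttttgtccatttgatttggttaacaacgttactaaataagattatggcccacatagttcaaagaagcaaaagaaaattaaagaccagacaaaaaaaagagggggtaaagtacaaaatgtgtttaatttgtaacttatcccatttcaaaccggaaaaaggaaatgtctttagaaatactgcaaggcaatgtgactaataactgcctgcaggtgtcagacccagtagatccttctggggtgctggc
The motif began 56 bases before the start used for Slc22a6 and 81 bases before that used for Slc22a8, and none was found in the Slc17a3 window. The RefSeq genes Slc22a8 and Slc17a3 begin further upstream, at bases 8591254 and 23836922. Their windows therefore surround another start than the first base of the gene. A match is a string of letters and not a measured binding site.

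Several members lie side by side. On chromosome 19, Slc22a30, Slc22a8 and Slc22a6 follow each other with no other protein-coding gene between them, next to Slc22a29. On chromosome 13, Slc17a2, Slc17a3, Slc17a1 and Slc17a4 are neighbours, and on chromosome 11 Slc22a5, Slc22a21 and Slc22a4 are. Within these runs the values differed: all 3 of Slc22a30, Slc22a8 and Slc22a6 were called in graft cells, while Slc22a29 lay above the 40th percentile on 1 array. Slc17a3 and Slc17a1 were called in graft cells, while Slc17a2 and Slc17a4 lay above it on 0 arrays and 1 array. How far probesets of such related genes take up each other's RNA cannot be read from these values.

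In graft cells the called regional differences all ran one way. In donor cells 11 of the 38 tested members were lower in medulla and none was higher, and in host cells 12 were lower, the 11 of donor cells and the cation carrier Slc22a2. Other carriers of the proximal tubule, among them Slc5a1, Slc5a2, Slc13a2, Slc22a12 and Slc34a3, were called in neither. Over all tested genes 2.54% were called in donor cells (1.92% lower in medulla) and 4.29% in host cells (2.43% lower in medulla). Slc5a12, Slc13a1, Slc22a22 and Slc22a30, 4 of the called members, passed the filter through the cortex alone; the counts without them were 7 in donor and 8 in host cells. The median difference over the 38 tested members was -0.43 in donor cells and -0.34 in host cells, against 0.11 and 0.10 over all tested genes. Over all 53 members the medians were 0.05 in donor cells and 0.01 in host cells, against 0.13 and 0.11 over all 19272 genes. Medulla and cortex arrays did not overlap for 17 tested members in donor cells and 17 in host cells, against 15.9% and 17.5% of all tested genes.

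**Figure D1:**
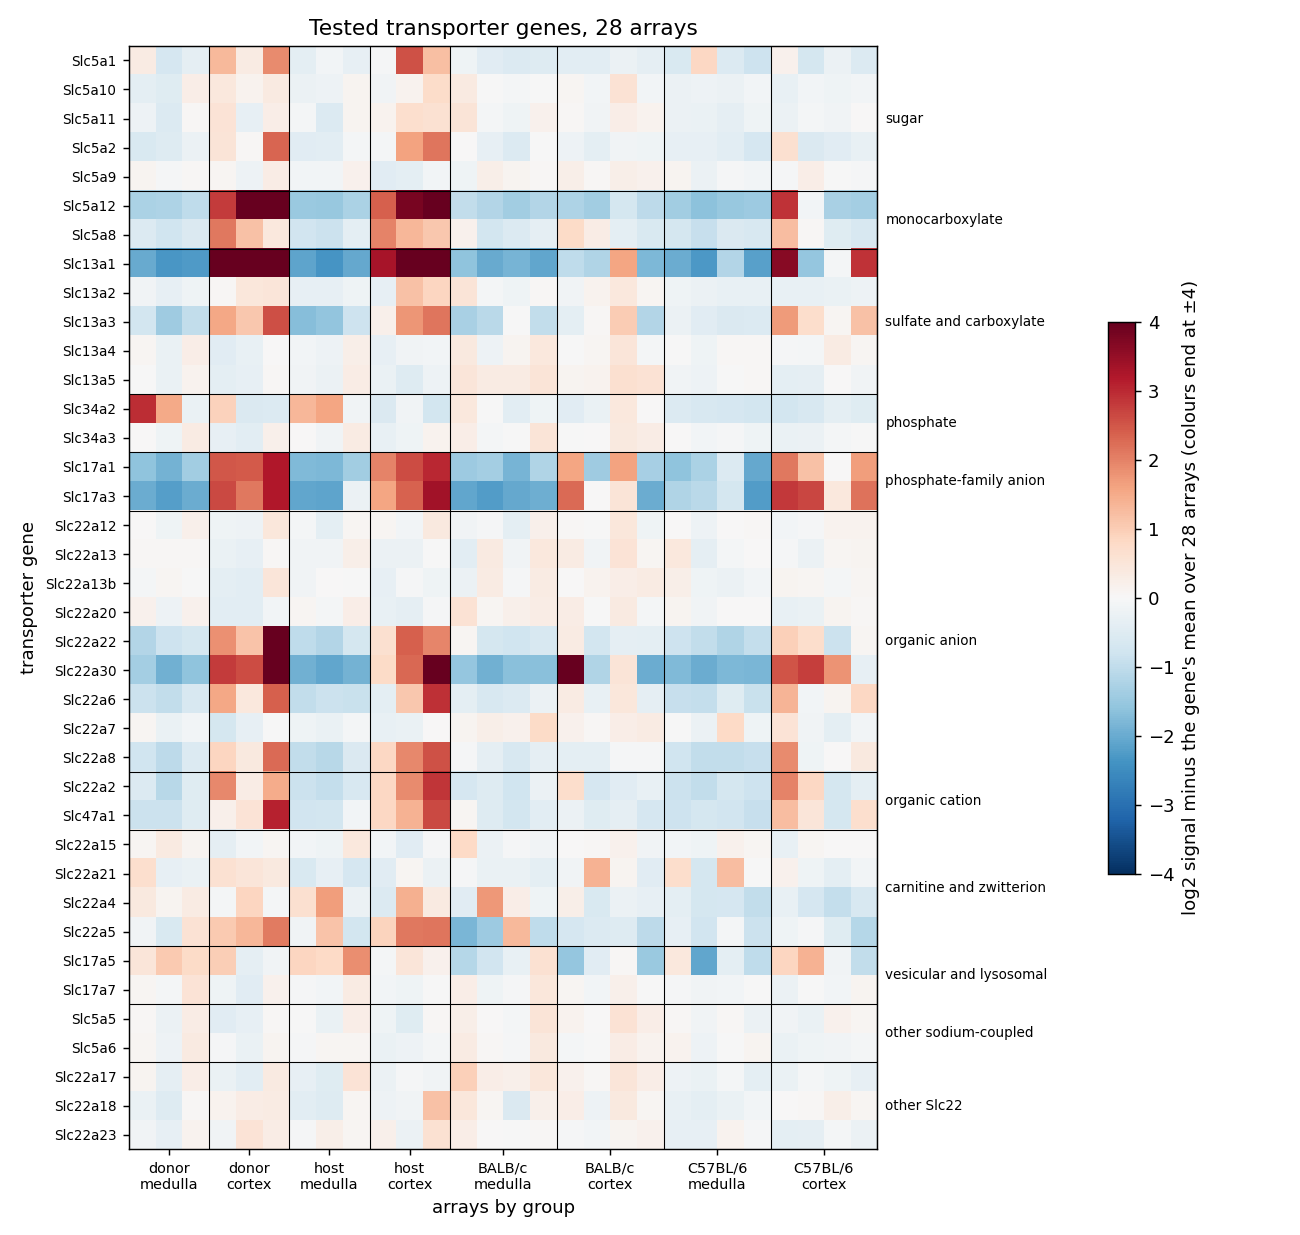
Each row is 1 of the 38 tested transporter genes, ordered by role, and each column 1 of the 28 arrays, grouped as donor, host, BALB/c and C57BL/6 cells with medulla left of cortex; the colour is log2 signal minus the gene's mean over 28 arrays. A block of carriers, among them Slc5a12, Slc13a1, Slc17a1, Slc17a3 and Slc22a30, is red in donor and host cortex arrays and blue in donor and host medulla arrays, while most vesicular and other members stay near 0.

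The sulfate carrier Slc13a1 (NaS1, apical) was called in both kinds of graft cells. In donor medulla it had log2 levels of 5.46, 5.14 and 5.20, against 11.97, 11.87 and 11.67 in donor cortex. In host medulla it had 5.35, 5.11 and 5.43, against 10.76, 12.24 and 12.27 in host cortex. All graft medulla arrays were low and all graft cortex arrays high, with differences of -6.57 ± 0.90 in donor cells (limma adjusted p = 8.74e-05) and -6.46 ± 0.90 in host cells (adjusted p = 7.81e-05). The medulla levels lay below the 40th percentile of the arrays (7.26 to 7.62), so the size of the difference has a background signal on its medulla side. Its relative Slc13a3 (NaDC3, a basolateral carrier of dicarboxylates) differed by -2.78 ± 0.53 in donor cells and -2.74 ± 0.53 in host cells, with adjusted p of 0.00282 and 0.00221. In donor medulla Slc13a3 had 8.74, 8.06 and 8.50, against 11.03, 10.55 and 12.06 in donor cortex, and in host medulla 7.79, 7.91 and 8.66, against 9.69, 11.25 and 11.63 in host cortex. The remaining Slc13 carriers were not called: Slc13a2 (NaDC1, apical) differed by -0.55 ± 0.25 in donor and -0.85 ± 0.25 in host cells, and Slc13a4 and Slc13a5 by 0.16 to 0.31 in both.

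Both sodium-coupled lactate carriers were called in graft cells. Slc5a12 (SMCT2, low affinity) had 7.00, 7.02 and 7.23 in donor medulla, against 11.07, 12.73 and 12.74 in donor cortex. Host medulla gave 6.77, 6.75 and 7.01, against 10.64, 12.04 and 13.04 in host cortex. The groups lay far apart, with differences of -5.10 ± 0.72 in donor cells and -5.06 ± 0.72 in host cells (limma adjusted p = 0.000123 and 9.52e-05). Slc5a8 (SMCT1, high affinity) differed by less, -1.87 ± 0.43 in donor cells and -2.13 ± 0.43 in host cells, with adjusted p of 0.0154 and 0.00328. The donor call of Slc5a8 was lost when replicate 1 of donor cortex or replicate 2 of donor medulla was left out (highest adjusted p = 0.133).

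Among the anion carriers of the Slc17 family, Slc17a1 (NPT1) and Slc17a3 (NPT4), which carry urate and other organic anions, were both called. Slc17a3 had 7.63, 7.42 and 7.63 in donor medulla, against 12.25, 11.71 and 12.82 in donor cortex, and 7.54, 7.51 and 9.38 in host medulla, against 11.18, 11.97 and 12.99 in host cortex. Host medulla replicate 3 stood above the other graft medulla arrays but below every graft cortex array. Differences were -4.70 ± 0.75 in donor cells and -3.90 ± 0.75 in host cells (limma adjusted p = 0.000491 and 0.00232). Slc17a1 had 7.42, 7.14 and 7.65 in donor medulla, against 11.53, 11.49 and 12.23 in donor cortex, and 7.28, 7.22 and 7.64 in host medulla, against 11.03, 11.65 and 12.03 in host cortex. It differed by -4.35 ± 0.65 in donor cells and -4.19 ± 0.65 in host cells, with adjusted p of 0.000199 and 0.000224.

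Of the 12 organic anion carriers of the Slc22 family with a role given here, 4 were called lower in medulla in both kinds of graft cells. Slc22a30 had 5.36, 4.78 and 5.10 in donor medulla, against 9.49, 9.31 and 10.86 in donor cortex, and 4.79, 4.62 and 4.81 in host medulla, against 7.47, 8.99 and 10.94 in host cortex. The cortex arrays spread over more than 1 log2 unit. Differences of Slc22a30 were -4.81 ± 1.03 in donor cells and -4.39 ± 1.03 in host cells (limma adjusted p = 0.00918 and 0.0131). The host call was lost without host cortex replicate 3 (adjusted p = 0.0786). Slc22a22 (OAT-PG, a prostaglandin carrier) had 5.35, 5.69 and 5.81 in donor medulla, against 8.34, 7.65 and 10.56 in donor cortex, a difference of -3.24 ± 0.54 (adjusted p = 0.000766), and it differed by -2.63 ± 0.54 in host cells (adjusted p = 0.0041).

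The classic p-aminohippurate carrier Slc22a6 (OAT1) had 7.60, 7.46 and 7.82 in donor medulla, against 10.01, 8.89 and 10.84 in donor cortex, a difference of -2.28 ± 0.54 (limma adjusted p = 0.0202). In host cells it differed by -2.11 ± 0.54 (adjusted p = 0.0247), with 7.47, 7.61 and 7.58 in host medulla, against 8.08, 9.54 and 11.40 in host cortex. Both calls were fragile: the donor call was lost when 1 of replicates 1 and 3 of donor cortex or replicates 1 and 2 of donor medulla was left out (highest adjusted p = 0.0972), and the host call without any one host array except cortex replicate 1 (highest adjusted p = 0.159). Slc22a8 (OAT3) had 7.48, 7.37 and 7.89 in host medulla, against 9.30, 10.38 and 11.02 in host cortex, a difference of -2.66 ± 0.45 (adjusted p = 0.000691). In donor cells it differed by -1.97 ± 0.45 (adjusted p = 0.0157), a call lost when replicate 3 of donor cortex or 1 of replicates 1 and 2 of donor medulla was left out (highest adjusted p = 0.0916). The remaining organic anion carriers that were tested, Slc22a7, Slc22a12, Slc22a13 and Slc22a20, were not called and differed by -0.24 to 0.37 in graft cells.

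Organic cations such as metformin enter tubule cells through Slc22a2 (OCT2) at the basolateral membrane and leave through Slc47a1 (MATE1) at the apical membrane. In host medulla Slc22a2 had 7.40, 7.31 and 7.64, against 9.09, 10.16 and 11.13 in host cortex, a difference of -2.68 ± 0.54 (limma adjusted p = 0.00361). In donor cells it differed by -1.93 ± 0.54 and was not called (adjusted p = 0.062), though its groups did not overlap there either. Slc47a1 differed by -2.01 ± 0.54 in donor cells (adjusted p = 0.0466) and -2.16 ± 0.54 in host cells (adjusted p = 0.0207). These calls were lost when replicate 3 of donor cortex or any donor medulla array was left out (highest adjusted p = 0.151), and without host cortex replicate 3 or host medulla replicates 1 or 2 (highest adjusted p = 0.119).

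The sodium-glucose carriers of the tubule missed the threshold. Slc5a2 (SGLT2, early proximal tubule) averaged 7.93 ± 0.20 in donor medulla and 9.34 ± 1.20 in donor cortex, and 8.06 ± 0.21 in host medulla and 9.61 ± 1.16 in host cortex. Slc5a1 (SGLT1, late proximal tubule) averaged 7.35 ± 0.51 in donor medulla and 8.76 ± 0.79 in donor cortex, and 7.32 ± 0.15 in host medulla and 8.83 ± 1.30 in host cortex. Adjusted p lay between 0.0643 and 0.152 for both genes in both kinds of cells, and SDs in cortex were 0.79 to 1.30, beside differences of -1.41 to -1.55. Of the phosphate carriers, Slc34a1 was not among the genes with a single-symbol probeset and has no value here. Slc34a3 (NaPi-IIc, apical) differed by 0.25 ± 0.19 in donor and 0.18 ± 0.19 in host cells. Slc34a2 (NaPi-IIb, of lung and intestine) was on the other side, with 1.47 ± 0.54 in donor and 1.39 ± 0.54 in host cells, and was not called (adjusted p = 0.204 and 0.201).

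Values are also given for Slc22a12, Slc22a18, Slc22a4 and Slc17a5, picked for a high mean signal among the members called in no regional comparison, which does not rank these genes by expression. The urate exchanger Slc22a12 (URAT1, apical) had a mean of 8.56 ± 0.18 in donor medulla and 8.57 ± 0.36 in donor cortex, and 8.42 ± 0.25 in host medulla and 8.67 ± 0.26 in host cortex. Over all 28 arrays it kept between 8.15 and 9.01. The imprinted gene Slc22a18 differed by -0.51 ± 0.29 in donor and -0.56 ± 0.29 in host cells. Slc22a4 (OCTN1) had 9.14, 8.84 and 9.08 in donor medulla, against 8.66, 9.58 and 8.66 in donor cortex, and 9.38, 10.41 and 8.52 in host medulla, against 8.18, 10.16 and 9.09 in host cortex. Its regions overlapped in both. Slc17a5 (sialin) had 9.60, 9.53 and 10.58 in host medulla, against 8.66, 9.22 and 8.92 in host cortex, which did not overlap, with a difference of 0.98 ± 0.61 that was not called (limma adjusted p = 0.534).

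**Figure D2:**
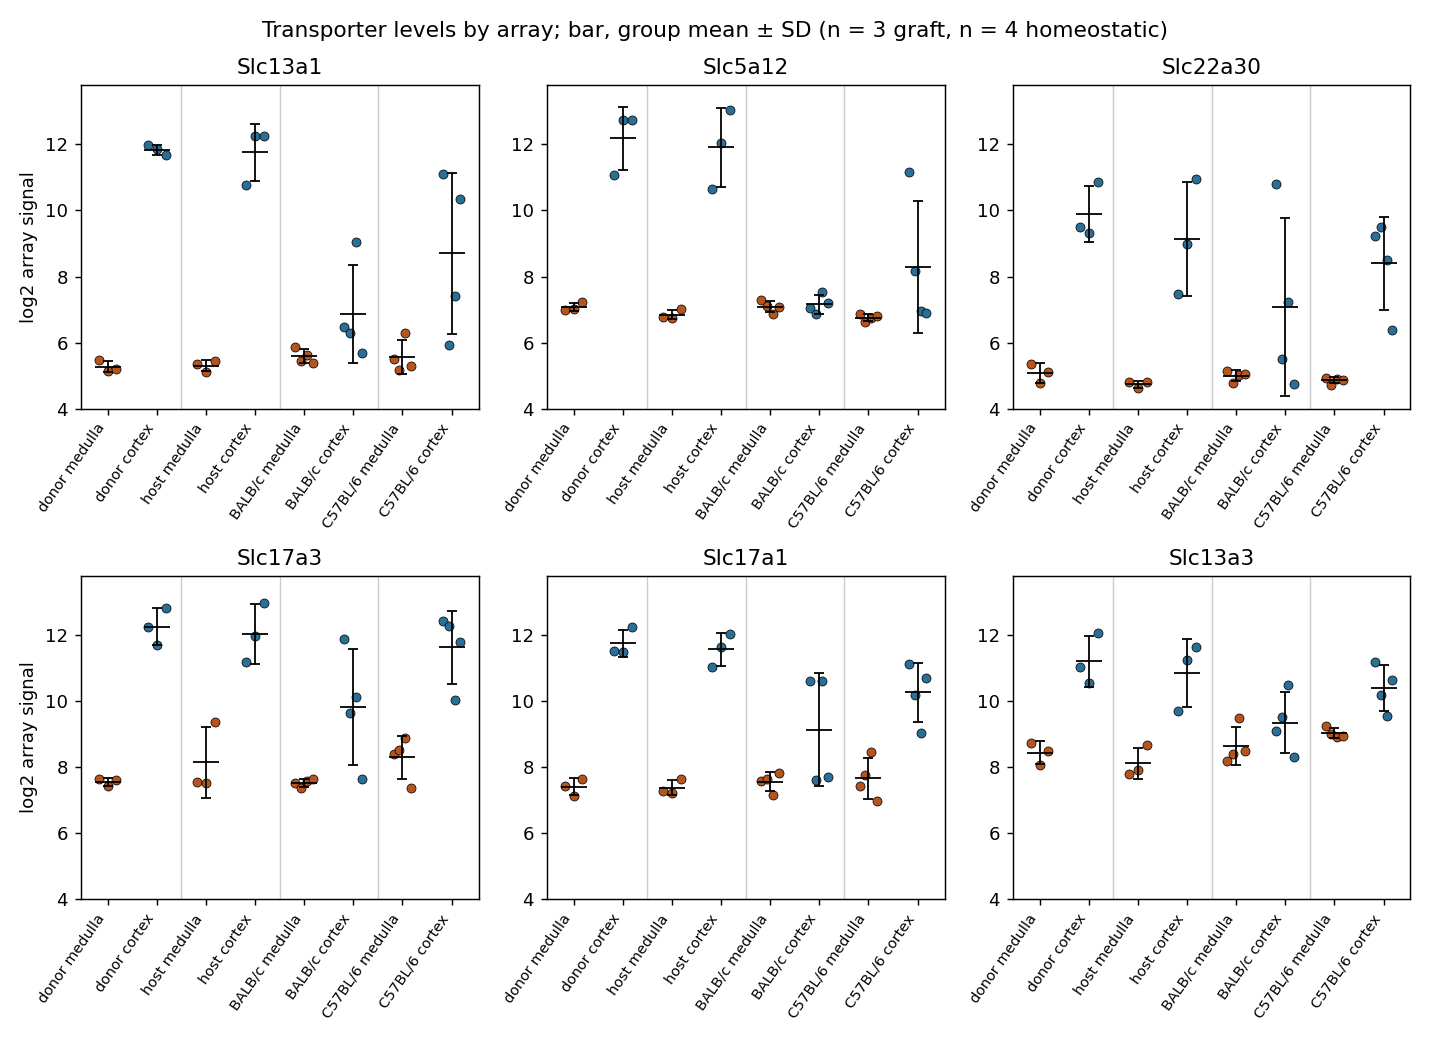
Log2 array signal of 6 transporters in each array (points; orange medulla, blue cortex) of the 8 groups, with bars for the group mean ± SD (n = 3 graft, n = 4 homeostatic). Graft medulla arrays of Slc13a1 sit between 5.11 and 5.46 and graft cortex arrays between 10.76 and 12.27, while homeostatic cortex arrays reach from 5.67 to 11.10.

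In healthy kidneys the same carriers were uneven between arrays. Of the members 1 was called in homeostatic C57BL/6 cells, Slc17a3, and none in homeostatic BALB/c cells, where limma gave 3 members an unadjusted p under 0.05, against 6.97% of all tested genes at that threshold. Over all tested genes 0.153% were called in C57BL/6 and 0.0697% in BALB/c cells. The median member differed by -0.09 in C57BL/6 cells and -0.05 in BALB/c cells, against 0.02 and 0.03 over all tested genes. In C57BL/6 cells 11 members had an unadjusted p under 0.05, against 3.74% of all tested genes, and the groups of 9 did not overlap, against 4.21% of all tested genes. In BALB/c cells the groups of 0 members did not overlap, against 2.40%.

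Slc17a3 had 8.41, 8.53, 8.90 and 7.37 in C57BL/6 medulla, against 12.44, 12.28, 10.02 and 11.80 in C57BL/6 cortex, a difference of -3.33 ± 0.65 (limma adjusted p = 0.0276). Leaving out C57BL/6 cortex replicates 1, 2 or 4 or medulla replicates 1, 2 or 4 ended this call (highest adjusted p = 0.186). It was also lost after a second quantile normalization and in the fits of the C57BL/6 groups alone, without a block and with mouse as a fixed block, under which 0 members were called. In BALB/c medulla it had 7.53, 7.37, 7.58 and 7.66, against 11.89, 9.65, 10.14 and 7.64 in BALB/c cortex, with replicate 4 of the cortex at the level of the medulla. Slc17a1 showed the same layout with 7.43, 7.75, 8.47 and 6.99 in C57BL/6 medulla, against 11.13, 10.20, 9.04 and 10.69 in C57BL/6 cortex (difference -2.60 ± 0.56, adjusted p = 0.0615).

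Slc13a1 had 5.49, 5.17, 6.29 and 5.29 in C57BL/6 medulla, against 11.10, 5.92, 7.41 and 10.36 in C57BL/6 cortex, and 5.87, 5.46, 5.62 and 5.39 in BALB/c medulla, against 6.47, 6.28, 9.05 and 5.67 in BALB/c cortex. Of the C57BL/6 cortex arrays, replicate 1 lay within the range of graft cortex and replicate 2 below the highest medulla array. Slc5a12 had 6.85, 6.62, 6.75 and 6.80 in C57BL/6 medulla, against 11.15, 8.16, 6.97 and 6.89 in C57BL/6 cortex. In BALB/c medulla Slc5a12 had 7.28, 7.10, 6.87 and 7.09, against 7.04, 6.85, 7.54 and 7.21 in BALB/c cortex, so that its BALB/c regions overlapped. Slc22a30 had 5.15, 4.78, 5.02 and 5.05 in BALB/c medulla, against 10.79, 5.50, 7.22 and 4.74 in BALB/c cortex, the widest spread among these genes.

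The order of the arrays was shared by many members. Of the 12 members called in graft cells, 11 had their highest C57BL/6 cortex level in replicate 1 and 6 their lowest in replicate 3. In BALB/c cortex 6 were highest in replicate 1 and 5 in replicate 3, and 7 were lowest in replicate 4. In host cortex 10 were highest in replicate 3 and 11 lowest in replicate 1, and in donor cortex 9 were highest in replicate 3. Within healthy mice, 11 of these members were lower in medulla in all 4 C57BL/6 mice and 1, Slc13a1, in all 4 BALB/c mice. These members were picked for their calls in graft cells, and the same counts over all tested genes are not given here. Of the BALB/c arrays of Slc13a1, only cortex replicate 3 lay above the percentile of the filter. In the other BALB/c mice both sides were a background signal, and the smallest BALB/c difference was -0.285.

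**Figure D3:**
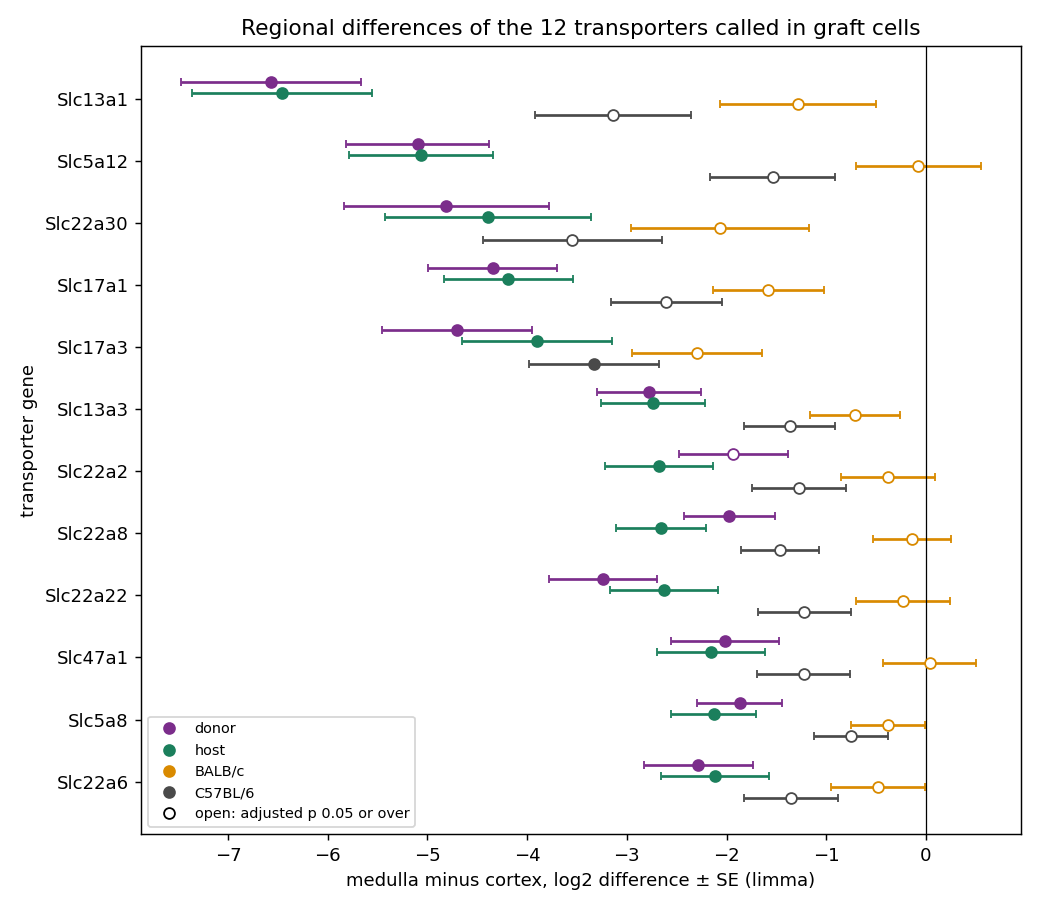
Medulla minus cortex differences (log2, ± SE from limma) of the 12 transporters called in donor or host cells, for donor, host, BALB/c and C57BL/6 cells; filled points passed an adjusted p under 0.05. Graft differences run from -6.57 to -1.87, while those of BALB/c cells reach 0.04 and only Slc17a3 is filled among homeostatic cells.

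The question whether the regional difference itself changed between graft and health was put to an interaction contrast. Relative to homeostatic BALB/c cells, 2 members had a more negative difference in donor cells: Slc5a12 by -5.02 ± 0.95 (limma adjusted p = 0.0113) and Slc13a1 by -5.28 ± 1.19 (adjusted p = 0.0481). Both passed the filter through the cortex alone, so the medulla side of both contrasts is a background signal. Donor minus BALB/c differences were 5.02 in cortex and -0.002 in medulla for Slc5a12. For Slc13a1 they were 4.97 and -0.31, so both contrasts largely repeat the cortex differences. Over all tested genes 0.453% were called. The Slc5a12 call held in all 14 fits that left out 1 array (highest adjusted p = 0.0375), and the Slc13a1 call was lost in 13 of 14 (highest adjusted p = 0.122), all except that without BALB/c cortex replicate 3. For host against homeostatic C57BL/6 cells 0 members were called by limma, against 0.899% of all tested genes, and 8 had an unadjusted p under 0.05, against 8.28% of all tested genes. Slc5a12 (-3.53 ± 0.95, adjusted p = 0.0965) came nearest. Between BALB/c and C57BL/6 cells 0 members were called by limma, against 0.0418% of all tested genes, and 1 had an unadjusted p under 0.05, against 4.27%.

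When mouse entered the model as a fixed block, in a fit limited to the groups compared, fewer members were called: 5 in donor cells, 3 in host cells and 1, Slc5a12, in the donor against BALB/c contrast. Fitting the same groups alone with no block called 6 in donor cells and 4 in host cells. Slc13a1, Slc17a1, Slc17a3, Slc22a30 and Slc5a12 were called in donor cells under the block, and Slc13a1, Slc17a1 and Slc17a3 in host cells. The counts over all tested genes in these fits are not given here. A loss of calls in these carriers therefore cannot be told apart from a general one.

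Between graft and healthy kidneys most calls fell in the cortex. Donor cortex was higher than homeostatic BALB/c cortex for 14 members and lower for 2, while 24.0% of all tested genes were called (7.91% higher). Host cortex was higher than homeostatic C57BL/6 cortex for 6 members and lower for none, while 4.14% were called (2.01% higher). The 5 members called in both were Slc5a1, Slc5a8, Slc5a12, Slc13a1 and Slc22a5. Slc13a2, called in host cortex, lay above the 40th percentile in 4 graft cortex arrays and in no other array. Slc5a1, Slc5a12 and Slc22a22, called in donor or host cortex or both, lay above it in fewer than 3 homeostatic arrays. They and Slc13a2 passed the filter through graft arrays, where they were then called higher, and the counts include them. With no filter Slc13a1, Slc5a1 and Slc5a8 lost their host call. The donor and host cells came from the same grafts, and the homeostatic BALB/c and C57BL/6 cells from different mice. The median tested member differed by 0.20 in donor and 0.41 in host cortex, against -0.13 and -0.01 over all tested genes. Over all 53 members the medians were -0.06 in donor and 0.06 in host cortex, against -0.24 and -0.01 over all 19272 genes. Marker lists differed in the same comparisons. Of 14 proximal tubule markers, 11 were higher in donor cortex (median 2.52) and 5 in host cortex (median 1.68), and none was lower. Of 11 tested dendritic cell genes, 5 were lower in donor cortex and 4 in host cortex, and of 22 leukocyte-wide genes 3 and 2. Of 8 macrophage genes, 2 were lower in donor and 7 in host cortex. Of 12 epithelium-wide genes, 5 were higher in donor and 3 in host cortex. The part of these shifts in the carriers' values was not tested.

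Slc5a12 was higher by 5.02 ± 0.67 in donor cortex (limma adjusted p = 6.97e-05) and by 3.62 ± 0.67 in host cortex (adjusted p = 0.00204). Slc13a1 was higher by 4.97 ± 0.84 in donor cortex (adjusted p = 0.00054) and by 3.06 ± 0.84 in host cortex (adjusted p = 0.0393). The carnitine carrier Slc22a5 (OCTN2) averaged 9.94 ± 0.53 in donor cortex and 7.76 ± 0.25 in BALB/c cortex, and 10.16 ± 0.71 in host cortex and 8.00 ± 0.50 in C57BL/6 cortex. It was higher by 2.17 ± 0.55 in both, with adjusted p of 0.00796 and 0.0238. In medulla Slc22a5 was higher by 0.69 ± 0.55 in donor and 0.59 ± 0.55 in host cells, not called. Its medulla minus cortex differences, -1.54 ± 0.59 in donor and -1.62 ± 0.59 in host cells, were not called (limma adjusted p = 0.230 and 0.161). Slc5a1 was higher by 1.54 ± 0.45 in donor and 1.57 ± 0.45 in host cortex (adjusted p = 0.0171 and 0.0485). Slc17a3, by contrast, was called in donor cortex (2.43 ± 0.70, adjusted p = 0.0167) but differed by 0.41 ± 0.70 in host cortex, where C57BL/6 cortex already averaged 11.64 ± 1.11. Whether the rise differed between members or between donor and host cells was not tested.

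Many of these calls were lost when 1 array was left out. In host cortex, Slc13a1, Slc13a2, Slc22a5, Slc5a1 and Slc5a8 each lost their call in 4 to 6 of the 7 fits without 1 array (highest adjusted p from 0.128 to 0.416), and host cortex replicates 2 and 3 and C57BL/6 cortex replicate 3 were among those arrays for each of the 5. In donor cortex, Slc5a12, Slc13a1, Slc13a3, Slc17a1, Slc22a5 and Slc22a22 kept theirs in all 7 fits, while Slc22a6 and Slc22a30 lost it in 6 and Slc22a2 in 5. Leaving out donor cortex replicate 3 ended the calls of Slc22a8 and Slc47a1 (adjusted p = 0.139 and 0.141).

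The 2 members lower in donor than in BALB/c cortex were the citrate carrier Slc13a5 (-0.58 ± 0.17, limma adjusted p = 0.015) and Slc22a20 (-0.46 ± 0.16, adjusted p = 0.0365), beside an all-gene median of -0.13. Each lost its call in 4 of the 7 fits without 1 array (highest adjusted p = 0.0803 and 0.143): Slc13a5 without donor cortex replicates 1 or 2 or BALB/c cortex replicates 3 or 4, and Slc22a20 without donor cortex replicates 1 or 2 or BALB/c cortex replicates 1 or 3. Slc13a5 was also higher in homeostatic BALB/c than in C57BL/6 cells, by 0.59 ± 0.15 in cortex and 0.48 ± 0.15 in medulla (adjusted p = 0.0196 and 0.0497), and Slc22a17, a receptor of the iron-binding protein lipocalin-2, by 0.71 ± 0.21 in medulla (adjusted p = 0.0411). These were the strain calls, 1 member in cortex and 2 in medulla, against 9.91% and 9.11% of all tested genes. The cortex call of Slc13a5 was lost in 4 of 8 fits, those without C57BL/6 cortex replicates 1 or 2 or BALB/c cortex replicates 3 or 4 (highest adjusted p = 0.083). Both medulla calls were lost in 6 of 8, those without any C57BL/6 medulla array or BALB/c medulla replicates 1 or 4 (highest adjusted p = 0.136 for Slc13a5 and 0.162 for Slc22a17).

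In the medulla few members were called between graft and health. Donor against BALB/c medulla gave 0 by limma, against 3.18% of all tested genes, and 2 with an unadjusted p under 0.05, against 21.9%. Host against C57BL/6 medulla gave 2, while 11.5% of all tested genes were called: Slc17a5 was higher by 1.94 ± 0.57 (adjusted p = 0.0276) and Slc34a2 by 1.56 ± 0.50 (adjusted p = 0.0472). Slc34a2 lay above the 40th percentile in 4 graft medulla arrays, 1 graft cortex array and 0 homeostatic arrays. It passed the filter through graft cells alone, and its C57BL/6 side was a background signal. With no filter, or after a second quantile normalization, the Slc34a2 call was lost. Slc17a5 had 9.60, 9.53 and 10.58 in host medulla, against 9.16, 6.64, 8.34 and 7.72 in C57BL/6 medulla, with no overlap. Its call was lost without C57BL/6 medulla replicates 2 or 4 or host medulla replicate 3 (highest adjusted p = 0.146), and that of Slc34a2 in 6 of 7 fits (highest adjusted p = 0.224), all except that without host medulla replicate 3. In the same host medulla comparison 18 of 22 leukocyte-wide, 8 of 11 dendritic cell and 7 of 8 macrophage genes were lower and 11 of 12 epithelium-wide genes higher, with medians of -2.87, -2.23, -3.37 and 2.33. In donor against BALB/c medulla the counts were 2, 1, 1 and 4. The part of these shifts in the calls of Slc17a5 and Slc34a2 was not tested.

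Donor and host cells of the same grafts were compared directly. Limma called 0 members in cortex and 0 in medulla, against 0.495% and 0.592% of all tested genes. An unadjusted p under 0.05 was reached by 1 member in cortex and 0 in medulla, against 5.58% and 6.11% of all tested genes. For Slc13a1 the donor minus host difference was 0.08 ± 0.90 in cortex, and for Slc5a12 it was 0.27 ± 0.72. These errors come from the fit without mouse as a block; the fixed block also called 0 members in both regions.

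**Figure D4:**
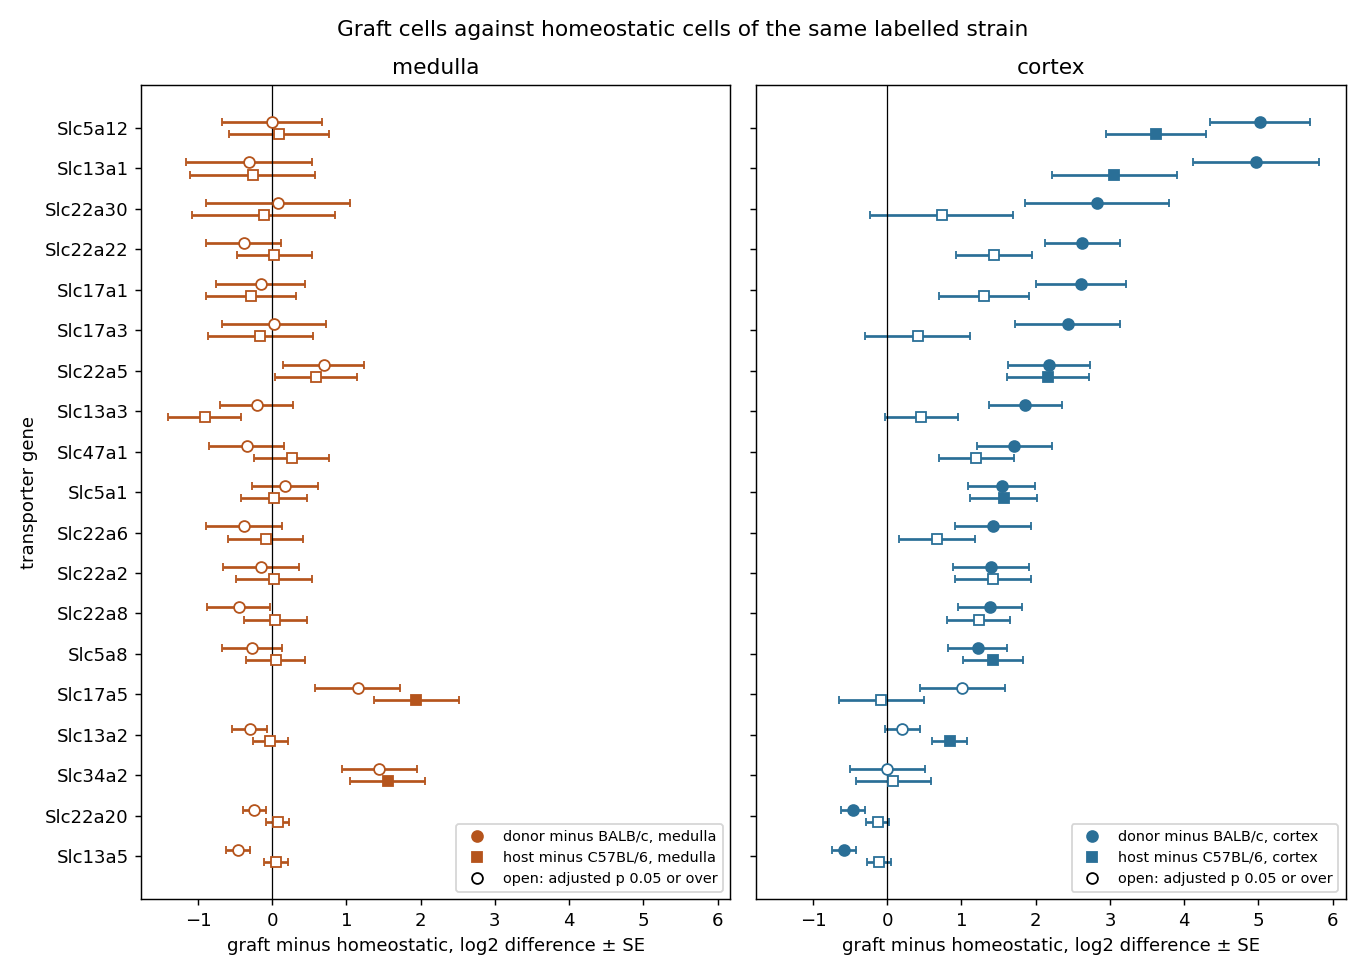
Graft minus homeostatic differences (log2, ± SE from limma) in medulla (left) and cortex (right) for the 19 transporters called in at least 1 of the 4 comparisons; circles are donor minus BALB/c, squares host minus C57BL/6, and filled symbols passed an adjusted p under 0.05. In cortex Slc5a12 reaches 5.02 and Slc13a1 4.97 in donor cells, while in medulla only Slc17a5 and Slc34a2 are filled.

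Genes that work beside these carriers in the tubule were counted in the same comparisons, from lists that were not independent of earlier results. Of 20 tested transport partners (pumps, exchangers, scaffolds and hormone receptors), 8 were lower in medulla in donor cells and 8 in host cells, with 0 and 1 higher. The 1 higher in host medulla was Slc9a3 (3.02 ± 0.59, limma adjusted p = 0.00254). Their medians were -0.68 and -0.94, against 0.11 and 0.10 over all tested genes. The bicarbonate carrier Slc4a4 differed by -4.35 ± 0.63 in donor and -4.31 ± 0.63 in host cells, and the scaffold Pdzk1, which binds apical carriers, by -4.49 ± 0.69 and -3.56 ± 0.69 (limma adjusted p = 0.000301 and 0.00238). Of 15 amino acid and peptide carriers, 8 were lower in donor and 7 in host medulla, among them Slc3a1, a subunit of the cystine carrier (-3.74 ± 0.50 and -3.92 ± 0.50), and Slc6a19 (-2.32 ± 0.46 and -2.70 ± 0.46), a carrier of neutral amino acids.

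Among 14 Slco and ABC carriers of organic ions, 4 were lower in medulla in each kind of graft cells and 1, Slco4a1, was higher in donor cells. Slco1a6, Abcc2, Slco1a1 and Abcg2 were the 4, with Slco1a6 at -3.81 ± 0.63 in donor and -3.50 ± 0.63 in host cells. Of 4 tested transcription factors of the proximal tubule, Hnf4a was lower in medulla by -2.15 ± 0.49 in donor and -2.51 ± 0.49 in host cells (limma adjusted p = 0.014 and 0.00234). Pax8, a factor of many tubule segments, was higher by 1.48 ± 0.31 and 1.86 ± 0.31.

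Markers of the proximal tubule moved with the carriers. Of its 14 measured marker genes, 13 were lower in medulla in donor and 13 in host cells, with medians of -4.60 and -4.21; in C57BL/6 cells 5 were called lower and in BALB/c cells 0. The endocytic receptors Cubn (-4.82 ± 0.39 in donor, -4.09 ± 0.39 in host cells) and Lrp2 (-5.18 ± 0.60 and -4.93 ± 0.60) were among them. The mean level of the list lay between 6.90 and 7.09 in donor medulla arrays and between 11.09 and 11.77 in donor cortex arrays, and between 6.93 and 7.79 in host medulla and 10.84 and 11.84 in host cortex. In BALB/c cells it lay between 7.24 and 7.83 in medulla and 7.66 and 9.97 in cortex, and in C57BL/6 cells between 6.93 and 8.45 in medulla and 9.24 and 10.92 in cortex. C57BL/6 cortex replicate 1, the highest array for 11 of 12 carriers, was also the highest for the markers (10.92), and replicate 3, the lowest for 6, was the lowest (9.24). BALB/c cortex replicates 1 and 3 had 9.97 and 8.95, and replicates 2 and 4 had 8.11 and 7.66. The part of proximal tubule RNA in the carriers' differences was not tested, and fewer cells of a type and less RNA per cell cannot be told apart in such samples.

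Epithelium-wide markers were called only in the opposite direction: of 12 measured, 1 was higher in medulla in donor cells and 4, Epcam among them, in host cells. The mean of 12 epithelium-wide genes was 10.01 ± 0.22 in donor medulla and 9.12 ± 0.48 in donor cortex, and 10.29 ± 0.32 in host medulla and 9.13 ± 0.29 in host cortex. Epcam averaged 10.53 ± 0.48 in donor medulla and 9.51 ± 0.52 in donor cortex, and 10.88 ± 0.12 in host medulla and 9.04 ± 0.27 in host cortex. In homeostatic cells the list averaged 8.70 ± 0.35 in BALB/c medulla and 8.12 ± 0.23 in BALB/c cortex, and 8.06 ± 0.06 in C57BL/6 medulla and 8.15 ± 0.15 in C57BL/6 cortex. Of 9 thick limb and distal tubule genes 1 was lower in medulla in donor cells, the distal tubule calcium-binding protein Calb1 (-4.25 ± 0.71), and in host cells 3 were lower and 1 higher. Of 11 collecting duct genes 0 were called in graft cells.

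The leukocyte genes bear on the label of the cells. Ptprc, which encodes CD45, averaged 11.23 ± 0.23 in donor medulla and 12.03 ± 0.25 in donor cortex, 9.67 ± 1.09 in host medulla and 11.71 ± 1.20 in host cortex, and 12.52 to 12.79 in the homeostatic groups. The mean of 22 leukocyte-wide genes was lowest in host medulla, 8.77 ± 0.59, against 10.26 ± 0.97 in host cortex, with 9 of the 22 called lower in host medulla and 0 called in donor cells. Itgax, which encodes the sort marker CD11c, averaged 7.38 ± 0.19 in donor medulla and 10.02 ± 0.78 in donor cortex, and 7.66 ± 0.45 in host medulla and 9.15 ± 1.46 in host cortex. In homeostatic cells Itgax averaged between 8.43 ± 0.97 in BALB/c medulla and 11.32 ± 0.31 in C57BL/6 cortex. Itgax was called lower in donor medulla (-2.64 ± 0.60, limma adjusted p = 0.0143), the only call among 11 tested dendritic cell genes in donor cells, whose median difference was -0.15. In host cells 3 of the 11 were called lower in medulla, all genes of antigen presentation by MHC class II: H2-Ab1 (-2.21 ± 0.43), Cd74 (-2.10 ± 0.35) and H2-Aa (-1.11 ± 0.30). The median of the 11 in host cells was -1.37. Macrophage genes went the other way: of 8, 2 were called higher in host medulla, C1qc (1.06 ± 0.27) and Csf1r (0.99 ± 0.27), and 0 lower. In donor cells 0 of the 8 were called. The part of these shifts in the carriers' values was not tested.

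**Figure D5:**
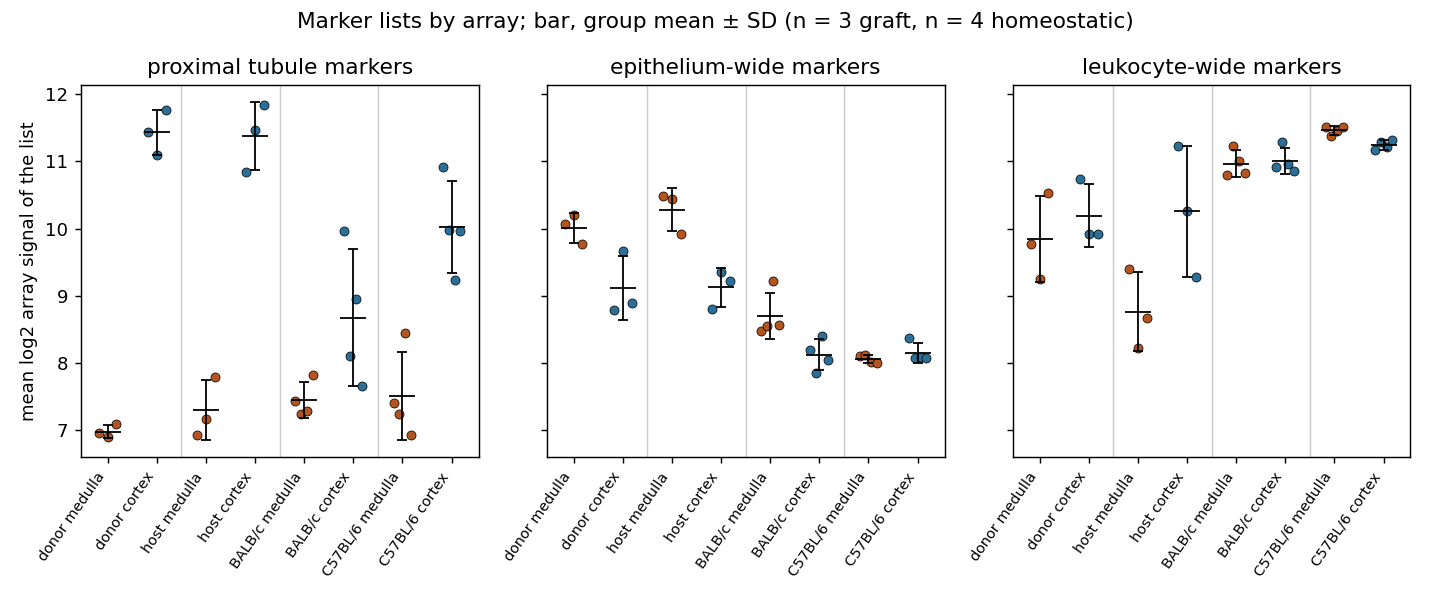
Mean log2 array signal of 3 marker lists (14 proximal tubule, 12 epithelium-wide and 22 leukocyte-wide genes) in each array, orange for medulla and blue for cortex, with bars for the group mean ± SD (n = 3 graft, n = 4 homeostatic). The proximal tubule list is at least 10.84 in all graft cortex arrays and at most 7.79 in all graft medulla arrays, while the epithelium-wide list is higher in graft medulla.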

How the data were processed

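Total RNA of sorted mouse renal dendritic cells was amplified and hybridised to 28 Affymetrix arrays in 8 labelled groups. The authors deposited log2 signal per probeset, made with RMA and oligo, per the submitters' processing notes. No tool version, scan date or genome build is given in the sources used here. Of 22549 probesets, 20646 carry 1 gene symbol in the platform annotation and were used, 551 carry several and 1352 none. The brightest probeset per gene over all arrays was kept, and a gene was tested when it lay above the 40th percentile of the array in at least 3 arrays, which left 14346 of 19272 genes.

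The model was fitted in limma 3.58.1 (R 4.3.3) on all 28 arrays, with a mean for each group and 20 residual degrees of freedom. Tests were 2-sided, with Benjamini-Hochberg adjustment over all tested genes in each of 15 comparisons. The script was tested on simulated data. The labels' mouse numbers join the medulla and cortex arrays of 1 animal: the residuals of same-mouse arrays correlated with a mean of 0.155 in donor cells, 0.106 in host cells, -0.00611 in BALB/c and -0.00326 in C57BL/6 cells, and those of donor with host cells of 1 graft with 0.220 in cortex and 0.171 in medulla. Mouse as a block was an alternative, beside the filter, a second quantile normalization, groups fitted alone, array weights and leaving out each array. Replicates are labelled biological; the number of arrays limits the precision.

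Members, gene lists and comparisons were chosen with earlier results of these data known, and no p-value is adjusted over the list alone. Values for every array are given for up to 8 members called without overlap in each regional comparison, for members called in an interaction contrast and for the 4 members with the highest mean signal among those called in no regional comparison. Of other lists, up to 4 called genes with the smallest adjusted p were eligible, with Ptprc and Epcam. Slc9a3 was added as the only transport partner called higher in medulla in host cells. Promoters come from RefSeq, build GRCm38.p6, and the order of neighbouring genes from its gene table.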

Additional observations from a re-analysis of the deposited data

Results flagged for a closer look

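The regional difference of Slc5a12 was more negative in donor cells than in homeostatic BALB/c cells by -5.02 ± 0.95, and that of Slc13a1 by -5.28 ± 1.19, in the limma test of the difference itself. Both genes passed the filter through the cortex alone. Of 56 groups of 4 homeostatic arrays looked at (14 members), 2 held an array far from the others by Dixon's criterion, and chance gives about 1 in 20. Slc22a12 had 8.35 in C57BL/6 medulla replicate 2, below 8.55 to 8.59 in the other 3 arrays. Slc22a6 had 7.99 in C57BL/6 medulla replicate 3, above 7.49 to 7.56 in the others; that array also had the highest mean of the proximal tubule markers in its group, 8.45.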

How the results depend on the processing

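No called member changed sign under any alternative, and the count of members called in each comparison was recomputed. In C57BL/6 cells, where 1 member had a called regional difference, the count was 2 with mouse as a random replicate block, 0 with the fixed block, 0 after a second quantile normalization, 0 with groups compared alone, 4 with array weights and 0 to 2 leaving out 1 array. In donor cells the count of 11 became 5 with the fixed block, 6 with groups alone and 7 to 13 leaving out 1 array, with 7 without donor medulla replicate 2; it was 10 with no filter or the second normalization, both without Slc47a1, and 8 with the strict filter. In host cells the count of 12 became 3 with the fixed block, 4 with groups alone, 9 with the strict filter and 9 to 15 leaving out 1 array. Slc13a1, Slc22a22 and Slc22a30 were not tested under the strict filter. The donor against BALB/c regional contrast, with 2, gave 1 with the fixed block, no filter, the strict filter, the second normalization or array weights, and 1 to 2 leaving out 1 array. The host against C57BL/6 contrast, with 0, gave 1 with the random block, 2 with array weights and 0 to 2 leaving out 1 array. Donor against BALB/c cortex, with 16, gave 27 with no filter (15 higher, 12 lower), 8 with the strict filter, 9 after the second normalization, 4 with groups alone and 8 to 14 leaving out 1 array. In medulla the same cells, with 0, gave 1 with array weights and 0 to 1 leaving out 1 array. Host against C57BL/6 cortex, with 6, gave 3 with no filter, 3 with the strict filter, 2 after the second normalization, 1 with groups alone, 13 with array weights and 1 to 9 leaving out 1 array. In medulla the same cells, with 2, gave 1 with no filter, 0 after the second normalization and 0 to 2 leaving out 1 array. BALB/c against C57BL/6 cortex, with 1, gave 5 with no filter, 0 with the strict filter, 0 with groups alone, 3 with array weights and 0 to 3 leaving out 1 array. BALB/c against C57BL/6 medulla, with 2, gave 6 with no filter, 0 with the strict filter, 1 after the second normalization, 0 with groups alone and 0 to 2 leaving out 1 array. The causes were not tested. Fits of groups alone or without 1 array also had fewer arrays, and the part of this in the counts was not tested either. Counts over all genes under these alternatives are not given here, so a change in members cannot be told apart from a general one.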
